A study of Mus musculus with 2 samples.

Results

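Cytochrome P450 genes were examined in the RNA of regulatory T cells (Tregs) sorted from mouse kidney. A gene was counted as a member when its mouse symbol, found through the RefSeq accession of an array probe, begins with Cyp and a digit. The sterol demethylase Cyp51 was left out, because it belongs to cholesterol synthesis. The rule gave 100 genes, among them 4 pseudogenes, of 22911 named genes on the array. They were read by 120 probes, and 17 genes had more than 1 probe.

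Both samples were Tregs taken 28 days into cGN, a kidney injury that is brought about by antibodies to the basement membrane of the glomerulus (anti-GBM). Sorted cells carried CD45, CD3e, CD4 and FoxP3-hCD2, a reporter that shows human CD2 on cells expressing Foxp3. All mice had received the injury, and no uninjured sample was analysed here. The samples differed in the lot of anti-GBM antibody, I or M, with 1 array for each, and the labels state that severity varied with the lot. Their titles number them as replicates of kidney Tregs after cGN induction. Strain, sex, age and the number of mice behind an array are not stated in the labels.

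The lot of each array is not settled. The scanner output gives array 1 as lot I and array 2 as lot M. The value table deposited with it has the 2 arrays the other way round. Arrays are therefore named by number, and each difference is array 2 minus array 1. By the scanner output this is lot M minus lot I, and by the value table the sign is opposite. With 1 array per lot there is no replicate check and no test, so each difference describes 2 arrays. The arrays had equal shares of probes well above background (54.0% each). All 8 T cell and Treg markers on the array were well above background on both, with differences from -0.17 (Foxp3) to 0.12 (Il2ra).

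Cytochrome P450 enzymes are haem proteins that insert an oxygen atom into their substrate, using electrons passed on by a reductase. Families CYP1 to CYP3 act mostly on drugs and other foreign compounds, several CYP2 and CYP4 enzymes oxidise fatty acids and arachidonic acid, and the higher-numbered families make or break down steroids, bile acids, vitamin D and retinoic acid. In the kidney, the proximal tubule is a main site of P450 expression, including the Cyp4a and Cyp2j enzymes and the hydroxylases that switch vitamin D on and off.

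Promoter sequence was given for 73 of the 100 genes in a RefSeq table of build GRCm38.p6, each from 250 bases before to 50 after the annotated start. The first set shows the 70 bases before the start of 6 genes that were at least 1.5-fold higher in array 2 and carry the letters TATAA within 20 to 40 bases before the start, on the gene's strand. These letters are in capitals.
Cyp2a4: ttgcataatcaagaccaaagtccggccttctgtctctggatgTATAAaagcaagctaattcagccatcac
Cyp2a5: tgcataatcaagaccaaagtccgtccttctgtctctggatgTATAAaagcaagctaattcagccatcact
Cyp2d10: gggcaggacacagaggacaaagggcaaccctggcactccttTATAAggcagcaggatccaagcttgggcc
Cyp2d26: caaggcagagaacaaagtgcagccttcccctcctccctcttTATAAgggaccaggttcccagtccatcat
Cyp2e1: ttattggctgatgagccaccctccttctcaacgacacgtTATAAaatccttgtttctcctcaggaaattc
Cyp4b1: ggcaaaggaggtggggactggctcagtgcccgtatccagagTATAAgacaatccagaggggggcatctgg
Cyp2a4 lies at chr7:26307122-26307191, plus strand, and Cyp2a5 at chr7:26835269-26835338, plus strand. Cyp2d10 lies at chr15:82407195-82407264, minus strand, and Cyp2d26 at chr15:82794246-82794315, minus strand. Cyp2e1 lies at chr7:140763749-140763818, plus strand, and Cyp4b1 at chr4:115647722-115647791, minus strand. The second set shows the same stretch of 2 genes whose levels were nearly equal on the arrays, neither of which has these letters there.
Cyp2s1: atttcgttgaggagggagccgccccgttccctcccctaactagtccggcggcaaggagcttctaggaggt
Cyp2r1: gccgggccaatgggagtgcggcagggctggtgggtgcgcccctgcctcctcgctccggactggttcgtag
Cyp2s1 lies at chr7:25816526-25816595, minus strand, and Cyp2r1 at chr7:114562973-114563042, minus strand.

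Levels are the log2 of a gene's processed signal over the 75th percentile of its array, so 0 is the 75th percentile and a lower number is dimmer. Because probes bind with different strength, levels are set against this percentile and against the detection floor (-4.62 on array 1 and -4.58 on array 2), not against each other. Of the 100 P450 genes, 37 were well above background on both arrays (37.0%, against 60.0% of all named genes). Another 4 reached this mark in array 2 alone and 2 in array 1 alone, and 57 reached it in neither. Of all 22911 named genes, 377, 296 and 8490 did so. Of the 37, 7 lay above the 75th percentile on both arrays: Cyp2s1, Cyp17a1, Cyp2e1, Cyp2d11, Cyp4b1, Cyp4f13 and Cyp4v3. Cyp2e1 did so as a mean of probes, and its dimmer probe lay under the percentile on both arrays. Levels of genes with several measured probes are such means, and the probes can lie far apart.

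**Figure D1:**
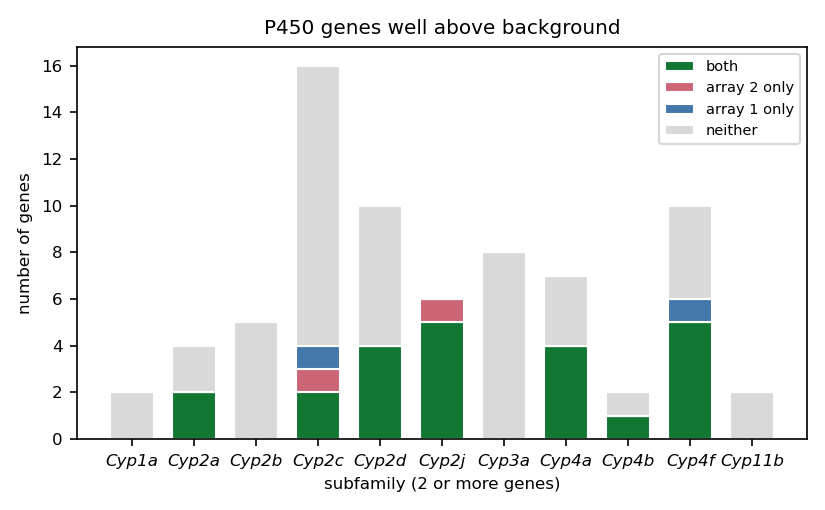
Number of P450 genes (vertical axis) by whether they were well above background, for each subfamily with 2 or more genes on the array (horizontal axis). Colours show detection on both arrays, on 1 array only, or on neither. Cyp2j was measured on both arrays for 5 of 6 genes and Cyp3a for none of 8.

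Among the 37, 30 were higher in array 2 and 7 were lower, beside 7390 of all 13743 genes that were higher. The median difference was 0.55, beside 0.01 over all 13743 genes measured on both arrays. In all, 11 were at least 2-fold higher in array 2 (29.7%, against 1.34% of all genes), and none was at least 2-fold higher in array 1 (against 0.0873%). At the lower limit of 1.5-fold, 18 were higher in array 2 (48.6%, against 5.15%) and 1 in array 1 (against 0.815%). Of all genes with a mean level under the 75th percentile, 2.50% were at least 2-fold higher in array 2, and of the 25 P450 genes in that range, 6 were (24.0%). Under another background correction (normexp, with an offset of 50), 2 of the 11 remained at least 2-fold higher (Cyp2a4 and Cyp4a31), and 28 of all 13743 genes were. With all probes of a gene and no filter on dim probes, 7 of the 11 remained past 2-fold, and Cyp4a10, Cyp4a31, Cyp2j5 and Cyp7b1 did not. In that setting 648 of all 22911 genes were at least 2-fold higher in array 2. These counts of P450 genes cover members bright enough to be measured on both arrays and do not speak for the other 63.

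The differences were then counted by size, with limits at 1.5-fold and at 0.25 on either side of 0. The 18 genes higher by 1.5-fold lay between 0.73 and 1.52. Another 4 (Cyp2j6, Cyp11a1, Cyp46a1 and Cyp2j11) lay between 0.31 and 0.55, 14 lay within 0.25 of 0, and Cyp2c55 lay at -0.61. The spot error, which the scanner's error model gives for a probe's signal and which holds no spread between mice, had a median of 0.21 over these genes.

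**Figure D2:**
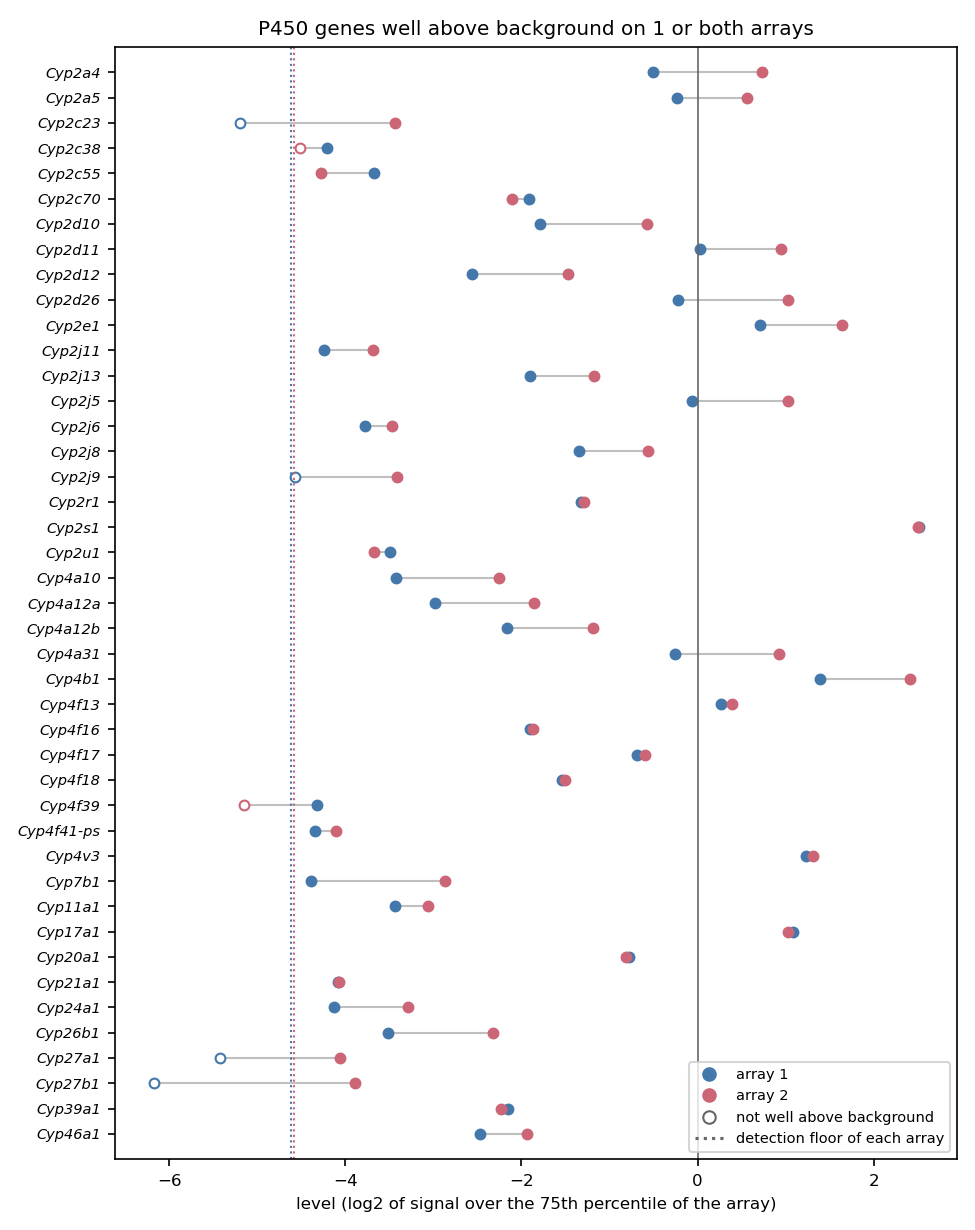
Level of each P450 gene well above background on at least 1 array (horizontal axis, log2 over the array's 75th percentile), by gene (vertical axis). Blue points are array 1, red points array 2, open points were not well above background and dotted lines are the detection floors. Cyp4a, Cyp2a, Cyp2d and Cyp4b1 points are pulled apart, as in Cyp4b1 at 1.39 and 2.41. The points of the 5 Cyp4f genes measured on both arrays nearly coincide. Cyp4f39, well above background on array 1 only, lies at -4.32 and -5.15.

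The Cyp4a enzymes hydroxylate the end of fatty acid chains and turn arachidonic acid into 20-HETE, a regulator of renal vessels and salt transport. All 4 measured Cyp4a genes were higher in array 2, by 0.98 to 1.18, and 3 of them by at least 2-fold. Cyp4a10 lay at -3.42 on array 1 and -2.26 on array 2, a difference of 1.16 ± 0.18 (spot error) over 2 of its 3 probes, which gave 1.01 and 1.32. The third, not well above background, gave -0.46, and with all 3 probes the difference was 0.62. Cyp4a12a, the main 20-HETE synthase of the male mouse kidney, went from -2.98 on array 1 to -1.86 on array 2 (1.12 ± 0.23, spot error). Its near copy Cyp4a12b lay at -2.16 and -1.19, a difference of 0.98 ± 0.21 (spot error). These genes were dim, well under the 75th percentile on each array, and their differences were 0.50 to 0.59 under normexp correction. Cyp4a31 lay close to the percentile, at -0.25 on array 1 and 0.93 on array 2 (1.18 ± 0.20, spot error), from 1 of its 2 probes, and at 0.51 with both probes and no filter on dim probes. Cyp4a14, Cyp4a29 and Cyp4a30b stayed near background, with no probe well above it.

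Cyp4b1, which oxidises short fatty acids and some protoxins, lies in the same run of P450 genes as Cyp4a and had a like difference. Its level was 1.39 on array 1 and 2.41 on array 2, above the 75th percentile on both, and the difference was 1.02 ± 0.20 (spot error). The run of neighbouring P450 genes that holds Cyp4x1, Cyp4a and Cyp4b1 has 15 genes in the RefSeq table, 10 of them with a probe. All 5 measured members of the run were higher in array 2, by 0.98 to 1.18 (median 1.12). The range was wider under normexp, from 0.50 (Cyp4a10) to 1.02 (Cyp4a31), and without the filter on dim probes, from 0.51 (Cyp4a31) to 1.12 (Cyp4a12a).

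The Cyp4f enzymes, which inactivate leukotriene B4 and hydroxylate other eicosanoids and long fatty acids, gave a different picture. The 5 measured Cyp4f genes differed by 0.03 to 0.24 (median 0.10), each less than its spot error. Cyp4f13 had levels of 0.26 and 0.39, above the percentile on both arrays. Cyp4f18, the leukotriene B4 hydroxylase of mouse neutrophils and other leukocytes, had levels of -1.54 and -1.51, and its 2 probes differed in sign (-0.06 and 0.14). Cyp4f16 lay at -1.91 and -1.87, and Cyp4f17 at -0.69 and -0.60. The pseudogene Cyp4f41-ps was near the floor, at -4.34 and -4.10, with a spot error of 0.39. Cyp4v3, a hydroxylase of medium-chain fatty acids, stood above the 75th percentile at 1.23 and 1.31, a difference of 0.08 ± 0.20 (spot error). Over probes well above background on both arrays, the 4 Cyp4a differences and Cyp4b1 lay above all 5 Cyp4f differences. The former passed 1.5-fold and the Cyp4f genes did not, beside 5.15% of all measured genes that did. Dim probes left out gave -0.46 (Cyp4a10) and -0.15 (Cyp4a31), below the Cyp4f differences. Cyp4a and Cyp4b1 are neighbours in the same run, and signal shared between them was not tested. Of the 21 CYP4 genes, 11 were measured on both arrays, and all 11 differences were above 0, with a median of 0.24. Those of Cyp4f16 (-0.02) and Cyp4f18 (-0.02) were below 0 when arrays were scaled by spike-ins, and that of Cyp4f16 (-0.01) under normexp. Cyp4f39 lay on the other side, well above background on array 1 only and at least 1.20-fold higher there. That bound (0.26 in log2) carries no error and is under the spot error of the similarly dim Cyp4f41-ps.

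**Figure D3:**
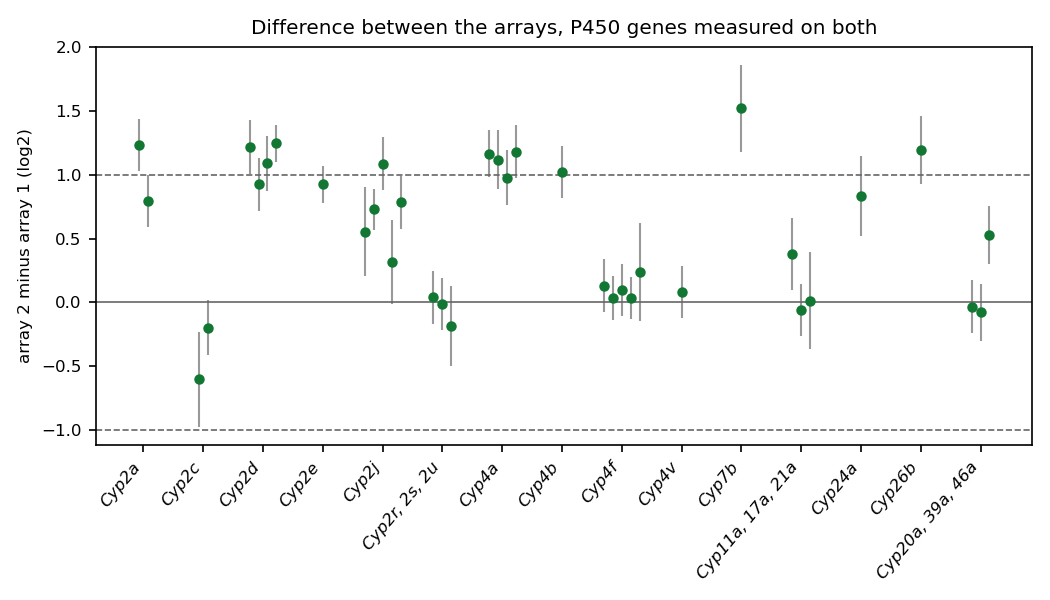
Difference between the arrays (vertical axis, log2, array 2 minus array 1) of the 37 P450 genes measured on both, by subfamily (horizontal axis). Bars are the spot error, and dashed lines mark 2-fold. Cyp4a genes lie between 0.98 and 1.18 and Cyp4f genes between 0.03 and 0.24.

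The Cyp2j and Cyp2c enzymes include the epoxygenases, which convert arachidonic acid to epoxides that dilate vessels and dampen inflammation. In the Cyp2j subfamily 5 of 6 genes were measured on both arrays, all higher in array 2 (median 0.73). Cyp2j5, a main epoxygenase of mouse kidney, lay at -0.06 on array 1 and 1.03 on array 2. The difference of 1.09 ± 0.20 (spot error) came from 1 of its 2 probes. It was under 2-fold with both probes (0.73) and under normexp (0.88). Cyp2j13 lay at -1.90 and -1.17 (0.73 ± 0.16, spot error), over 2 of 4 probes that gave 0.50 and 0.96. Cyp2j8 lay at -1.35 and -0.56, a difference of 0.78. The dimmer Cyp2j6 (0.31 ± 0.33) and Cyp2j11 (0.55 ± 0.35) were less certain, and the spot error of Cyp2j6 exceeded its difference. Cyp2j9 was well above background on array 2 only, at a level of -3.41, 2.24-fold higher there, set against its own level of -4.57 on array 1. Here and in the other such bounds, the fold sets the level on the bright array against the higher of the dim array's floor and the probe's own level. No spot error is attached to these folds.

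The Cyp2c subfamily differed from Cyp2j in detection, and no firm sign can be read for it. Of its 16 genes, 12 were well above background on neither array. The only 2 measured on both were lower in array 2. Cyp2c70, a bile acid hydroxylase of mouse liver, lay at -1.91 on array 1 and -2.11 on array 2, a difference of -0.20 ± 0.22 (spot error). Cyp2c55 lay near the floor, at -3.68 and -4.28 (-0.61 ± 0.37, spot error), from 1 of its 2 probes. Its difference was -0.01 under normexp, and it turned to 0.11 when both probes were used without the filter on dim probes. Cyp2c23, an arachidonic acid epoxygenase of the kidney, went the other way: 1 of its 2 probes was well above background on array 2 only, at -3.43, at least 2.28-fold higher. Cyp2c38 was well above background on array 1 only, 1.24-fold higher there (0.31 in log2), set against its own level of -4.52 on array 2. This fold carries no error and is under the spot error of Cyp2c55, which was also near the floor.

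Cyp2a, Cyp2d and Cyp2e1 oxidise drugs, coumarin, steroids and small organic molecules. Cyp2a4, a testosterone 15-alpha-hydroxylase, had levels of -0.50 and 0.73, a difference of 1.23 ± 0.20 (spot error). Cyp2a5, the coumarin hydroxylase, had levels of -0.24 and 0.56, a difference of 0.79 ± 0.20 (spot error). Their printed promoters are nearly the same: over the full 300 bases, 294 are identical (98.0%). The genes are near-identical paralogues, no probe sequence was at hand, and a signal shared between them was not tested.

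All 4 measured Cyp2d genes were higher in array 2, by 0.92 to 1.25 (median 1.15). Cyp2d26 lay at -0.23 on array 1 and 1.02 on array 2, and its 2 probes gave 1.21 and 1.29. Cyp2d10 lay at -1.79 and -0.57 (1.22 ± 0.21, spot error), and Cyp2d12 at -2.57 and -1.48 (1.09 ± 0.22, spot error, or 0.59 under normexp). Cyp2d11 lay at 0.02 and 0.95, a difference of 0.92. The other 6 Cyp2d genes, among them Cyp2d9 and Cyp2d22, were well above background on neither array. Cyp2d9 shares 89.0% of its promoter with Cyp2d11 and 83.7% with Cyp2d10. The Cyp2d genes form a pair of neighbouring runs, of 5 and 13 P450 genes, and 2 measured genes from each gave medians of 1.07 and 1.17.

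Cyp2e1, which oxidises ethanol and acetone, lay above the 75th percentile on both arrays, at 0.71 and 1.64, as the mean of 2 probes. The brighter probe lay at 2.34 and 3.30, and the dimmer at -0.92 and -0.03, under the percentile. These 2 probes gave differences of 0.89 and 0.96, for a Cyp2e1 difference of 0.92 ± 0.14 (spot error).

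Cyp2r1, Cyp2s1 and Cyp2u1, each the only gene of its subfamily on the array, differed by less than their spot errors. Cyp2ab1, Cyp2f2, Cyp2g1, Cyp2t4 and Cyp2w1 were well above background on neither array. Cyp2s1, which acts on retinoids and eicosanoids outside the liver, had levels of 2.51 and 2.50. It stood above the 75th percentile on both arrays and differed by -0.01 ± 0.20 (spot error). Cyp2u1, a fatty acid hydroxylase, lay at -3.49 and -3.67, a difference of -0.19 ± 0.31 (spot error). The CYP2 family as a whole had 17 of 50 genes measured on both arrays, 13 higher and 4 lower, 5 of them at least 2-fold higher, with a median of 0.78. The order of the CYP2 and CYP4 medians, 0.78 and 0.24, turned without the filter on dim probes (0.038 and 0.081). The CYP2 median was 0.43 with another detection flag and 0.55 without near-identical genes. The spread within each family, between Cyp2d and Cyp2c and between Cyp4a and Cyp4f, was wider than the gap between families. For Cyp2c this rests on 2 measured genes without a firm sign.

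Vitamin D is activated by 25-hydroxylation and 1-alpha-hydroxylation and inactivated by 24-hydroxylation. Cyp2r1, the main 25-hydroxylase, lay at -1.32 and -1.29, a difference of 0.04. Cyp27a1, which also 25-hydroxylates vitamin D and oxidises the sterol side chain, was well above background on array 2 only, at -4.06, at least 1.47-fold higher. Cyp27b1, the 1-alpha-hydroxylase of the proximal tubule, was likewise well above background on array 2 only, at -3.88, at least 1.66-fold higher. Both were close to the floor. Cyp24a1, the 24-hydroxylase, lay at -4.13 and -3.29 (0.83 ± 0.31, spot error, or 0.26 under normexp). All 8 further genes of vitamin D handling were measured on both arrays and were higher in array 2 (median 0.68). Rxra, at 0.02, was under its spot error of 0.15, and 2 genes were at least 2-fold higher. Those 2 were the uptake receptors Lrp2 (1.20) and Cubn (1.05), which are also proximal tubule markers, and the vitamin D receptor Vdr differed by 0.27.

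Cyp26 enzymes break down retinoic acid. Cyp26b1 lay at -3.52 on array 1 and -2.32 on array 2 (1.19 ± 0.27, spot error, or 0.43 under normexp), while Cyp26a1 and Cyp26c1 were well above background on neither. Of 13 other retinoid genes on the array, 8 were measured on both (median 0.10), 6 higher and none by 2-fold. Aldh1a1, which makes retinoic acid, differed by 0.86. Rbp4, the carrier of retinol in plasma, was well above background on array 2 only, at least 7.89-fold higher.

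Of the genes of bile acid and sterol breakdown, Cyp7b1, the oxysterol 7-alpha-hydroxylase, had the widest difference of all 37 P450 genes. It lay at -4.39 on array 1, close to the floor, and at -2.87 on array 2, a difference of 1.52 ± 0.34 (spot error) from 1 of its 2 probes. The other probe, not well above background, gave -0.26. With both probes the difference was 0.63, and under normexp it was 0.59, in each case under 2-fold. Cyp39a1, another oxysterol 7-alpha-hydroxylase, lay at -2.16 and -2.24 (-0.08). Cyp46a1, the cholesterol 24-hydroxylase, lay at -2.47 and -1.94 (0.53 ± 0.22, spot error, or 0.26 under normexp). Cyp7a1, the first and rate-limiting enzyme of bile acid synthesis in liver, and Cyp8b1, the sterol 12-alpha-hydroxylase, were well above background on neither. Of 13 other genes of bile acid handling, 9 were measured on both arrays (median 0.12), 8 of them higher in array 2, and Slc51a, a basolateral bile acid exporter, was the 1 past 2-fold (1.16).

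Steroid synthesis starts with Cyp11a1, which cleaves the side chain of cholesterol. It lay at -3.44 and -3.06, a difference of 0.38 ± 0.28 (spot error), or 0.13 under normexp. Cyp17a1, the 17-alpha-hydroxylase, was bright, at 1.09 and 1.02, above the 75th percentile on both arrays and nearly equal between them (-0.06 ± 0.20, spot error). Cyp21a1, the 21-hydroxylase, lay near the floor at -4.08 and -4.07, from 1 of its 2 probes. Its difference of 0.01 became 0.72 when both probes were used without the filter on dim probes. Cyp11b1, Cyp11b2 and Cyp19a1, which complete the making of corticosterone, aldosterone and oestrogen, were well above background on neither array. Of 7 markers of the adrenal cortex, 2 were measured on both, Star (-0.18) and Nr5a1 (-0.08), and the other 5 on neither. Their summed level, in multiples of the 75th percentile, was 0.433 on array 1 and 0.391 on array 2, and their part in the Cyp17a1 signal was not tested. Cyp20a1, an orphan P450 with no settled substrate, lay at -0.78 and -0.81, a difference of -0.03 ± 0.21 (spot error).

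The classical drug-induced P450 genes were well above background on neither array. These were all 3 CYP1 genes (Cyp1a1, Cyp1a2 and Cyp1b1, targets of the aryl hydrocarbon receptor), all 8 Cyp3a genes and all 5 Cyp2b genes. Ahr itself was measured on both arrays (0.10), and Nr1i2, the receptor that drives Cyp3a, on neither.

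Genes that serve or surround the P450 enzymes varied by list. All 7 electron donors and partners on the array were measured and nearly equal, from -0.03 (Cyb5r3) to 0.16 (Por, the P450 reductase). Of 16 regulators, 12 were measured (10 higher, 2 lower, median 0.29). Nr1h4, the bile acid receptor, differed by 0.85, Hnf4a, a factor of liver and kidney epithelium, by 0.73, and Ppara, which drives Cyp4a, by 0.57. Of 15 eicosanoid genes, 12 were measured (10 higher, none by 2-fold, median 0.22), from Ptgs2 (-0.45) to Ephx2 (0.98), the hydrolase that removes the epoxides made by Cyp2j and Cyp2c. Of 15 genes of other drug metabolism, 13 were measured (12 higher, 2 by at least 2-fold, median 0.56), with Ugt2b38 (1.02) and Ces1d (1.01) past 2-fold.

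Markers of kidney epithelium were higher in array 2. Of the measured P450 genes, 18 were past 1.5-fold on that side, and their shared direction follows from that limit. Another 4 lay between 0.31 and 0.55, 14 lay within 0.25 of 0, and Cyp2c55 was lower. All 13 proximal tubule markers were measured on both arrays and higher in array 2, by 0.83 (Slc22a12) to 1.59 (Slc5a2), 9 of them by at least 2-fold (median 1.16). Their summed level, in multiples of the 75th percentile, was 84.6 on array 1 and 175 on array 2. All 8 markers of distal nephron and collecting duct were higher too, by 0.07 (Calb1, spot error 0.20) to 1.60 (Aqp2), with a median of 0.74. Their summed levels were 90.7 and 122. The 7 macrophage markers were higher by 0.04 to 0.46, with summed levels of 14.9 and 19.0. Endothelial markers, 5 of 6 measured, had a median of 0.03, with summed levels of 1.46 and 1.52. Of 8 hepatocyte markers 4 were measured, from 0.06 (Apoa2) to 2.09 (Fgb), with summed levels of 0.799 and 1.24, and Alb, Apoa1, Fga and Tat were well above background on neither array. T cell and Treg markers had summed levels of 537 and 547. Of the remaining lists, 3 of 6 fibroblast and mesangium markers (0.575 and 0.572), 1 of 5 podocyte markers (0.155 and 0.161), 1 of 5 mast cell markers (0.141 and 0.175), 4 of 4 neutrophil markers (74.96 and 71.2) and 4 of 5 B cell markers (6.28 and 5.10) were measured, with the summed levels on arrays 1 and 2 in parentheses. Each of these sums, that of the adrenal markers included, runs over every marker of the list on the array, dim ones included, and is set mostly by its brightest probes. For podocytes the only measured marker, Synpo, differed by -0.05, although the sum was higher. For neutrophils 3 of 4 markers were higher in array 2 (median 0.34, Retnlg 0.98), while Csf3r, which makes up most of the sum, differed by -0.14. The part of any of these cell types in the P450 differences was not tested. In RNA from a whole sorted sample, fewer cells of a type and less RNA per cell cannot be told apart.

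**Figure D4:**
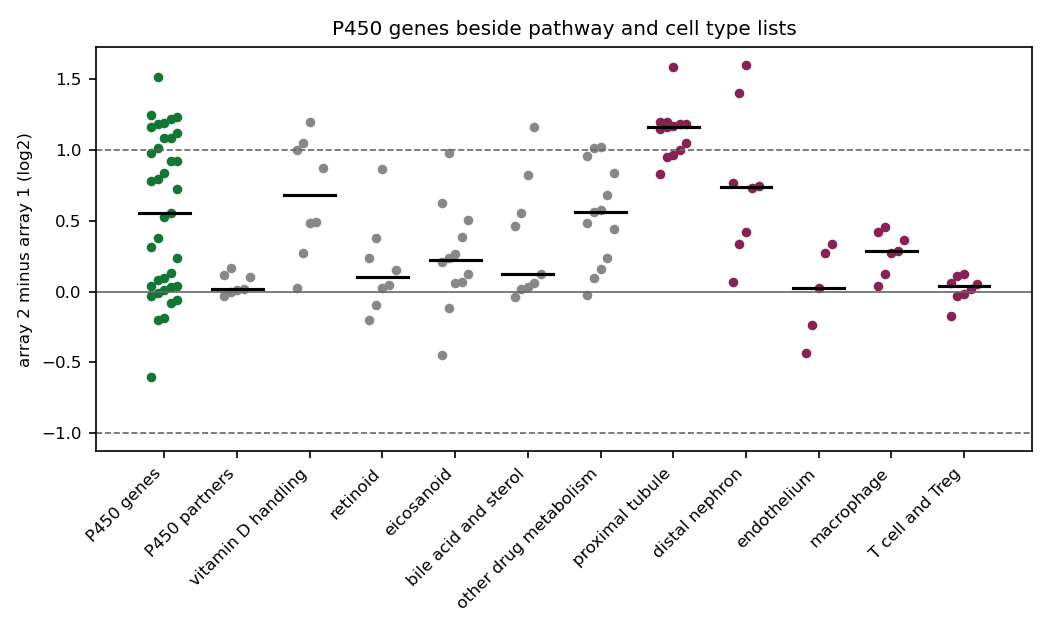
Difference between the arrays (vertical axis, log2, array 2 minus array 1) of genes measured on both, for the P450 genes (green), pathway lists (grey) and cell type markers (purple) along the horizontal axis. Horizontal bars are medians, and dashed lines mark 2-fold. P450 genes spread from -0.61 to 1.52 with a median of 0.55, beside a narrow range of 0.83 to 1.59 for proximal tubule markers and -0.17 to 0.12 for T cell and Treg markers.

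Promoters were then set beside the differences. The letters TATAA, searched on the gene's strand and starting 20 to 40 bases before the start, stood in 4.22% of all 27025 genes with a promoter and in 21 of 73 P450 genes (28.8%). On the opposite strand the same letters stood in 1.98% of all genes and 12 of the 73 P450 genes (16.4%). The strands are not separate counts, because TTATAA reads the same on each. Cyp2d10, Cyp2d26 and Cyp2e1 carry it and are counted on both strands. Of the 11 genes with a promoter entry among the 18 higher by 1.5-fold, 6 had the letters on the gene's strand, namely the 6 printed. Of the 13 other measured genes with an entry, 1 had them, Cyp2c55. Of 49 P450 genes with an entry that were not measured on both arrays, 14 had them (28.6%). Cyp2d11 counts among those without, although its promoter resembles that of Cyp2d10, because its copies of the letters start outside the window.

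The dinucleotide CG occurred a median of 3 times in the 300 bases of a P450 promoter, beside 8 times over all promoters. The measured genes 1.5-fold higher in array 2 had a median of 2 (range 1 to 9), and the other measured genes a median of 6 (range 0 to 31). The 49 P450 genes not measured on both arrays also had a median of 2 (range 0 to 26). Cyp2r1 had 22, Cyp20a1 20 and Cyp2s1 17, each nearly equal between the arrays. Cyp2d26 and Cyp2a4 had 1 each, Cyp2j5 2, Cyp2e1 4 and Cyp4b1 5, all of them higher in array 2. The groups overlapped. Cyp4f16 had 2 CG and a difference of 0.03, Cyp4f18 3 and 0.04, Cyp2c70 4 and -0.20, and Cyp2c55 0 and -0.61, while Cyp26b1 had 9 and a difference of 1.19. These are descriptions of the letters in the window, and 13 of the 37 measured genes, among them all 4 Cyp4a genes, had no entry.

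Sequence copies limit how many of these genes count as separate readings. Of P450 pairs within a subfamily, 18 had promoters at least 80% identical, from Cyp2b13 and Cyp2b9 (99.3%) down to Cyp2d10 and Cyp2d11 (80.3%). Most of these pairs lay in Cyp2b, Cyp2c and Cyp3a, where genes were rarely measured. Without the genes in such pairs, 33 of the 37 remained, 9 of them at least 2-fold higher in array 2. All 4 measured Cyp4a genes, the near copies Cyp4a12a and Cyp4a12b among them, and Cyp2d12 had no promoter entry. They stay among the 33 whatever their likeness to other genes. Without probe sequences, signal shared between any of the paralogues was not tested.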

How the data were processed

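Cy3-labelled RNA of the sorted cells was read on 2 Agilent mouse arrays of 1 colour, 1 per antibody lot. The scanner images were read by Agilent Feature Extraction 10.7.1.1, per the submitters' processing notes and the file headers. The deposited processed signal intensity was corrected for background within the array, per the file headers, with no scaling from array to array. Other columns deposited by the authors are flags of 0 or 1 for detection and outliers. A separate deposited table holds a linear ratio (column medians 0.070 and 0.069), made in a way not given in the sources used here. Over 13919 and 13802 probes with a signal of at least 300, log2 of signal over this ratio had an SD of 0.000162 and 0.000158 against the column of the other lot and 0.156 and 0.181 against its own. The ratio is thus the signal over 1 constant per array, not logged and not centred. Which lot each array belongs to stays unknown, and with it the direction between lots.

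Control spots (3671 of 62976) and outlier spots (75 and 56) were dropped, and none was saturated. Repeat spots of a probe were averaged, signals log2-transformed and the array's 75th percentile over probes subtracted. Of 56605 probes, 35886 had a RefSeq accession and 32994 (58.3%) received 1 symbol from a RefSeq table (GRCm38.p6, used for names and gene order). Genes were averaged over probes well above background on both arrays. The detection floor of an array is the lowest level among probes well above background on that array, whatever their flag on the other. No test was run. The number of arrays limits the precision. The gene summary was tested on simulated data.

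Members, lists and limits were chosen with earlier results of these data known. Named genes were members above the 75th percentile on both arrays, 2-fold differences or bounds, the 5 lowest differences and genes of defined role. Cyp2a5, Cyp4a12b, Cyp2j6, Cyp2j8, Cyp2j11, other measured Cyp4f genes and genes named as not detected, from the lists or for their promoters were named after their values were seen. Alternatives were normexp background correction (offset 50, limma 3.58.1 in R 4.3.3, on the median signal), other scalings, filters, flags and fold limits, the brightest probe, and the value table. Promoters were aligned with Biopython 1.88. A gene of the lists is not reported here.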

Additional observations from a re-analysis of the deposited data

How the results depend on the processing

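No replicate could be left out and no paired analysis was possible because each lot has 1 array. Leaving out members with proteins at least 90% identical was planned and not run, since no protein sequences were used here. A promoter identity of 80% was used instead, chosen after seeing the data, and it lowered the CYP2 median to 0.55. Under normexp correction, 2 genes were at least 2-fold higher in array 2 (28 of all genes) and the P450 median was 0.26. The 3 highest were Cyp2a4 (1.07), Cyp4a31 (1.02) and Cyp2d26 (0.997). Without a filter on dim probes, 14 genes were 2-fold higher in array 2, among them 7 of the 11, and 1 in array 1. Of all 22911 genes, 648 and 399 were. The P450, CYP2 and CYP4 medians were then 0.036, 0.038 and 0.081. A stricter filter (4 times the floor) kept 25 genes, 7 of them 2-fold higher in array 2 (84 of all 11830 genes kept), with a median of 0.78. With another detection flag (gIsPosAndSignif), 12 of 51 genes were 2-fold higher in array 2 (440 of all 16127 genes). Among the 12 were 7 of the 11, and the CYP2 median was 0.43. Cyp4a10 (0.62), Cyp4a31 (0.51), Cyp2j5 (0.73) and Cyp7b1 (0.63) were under 2-fold both without the filter and with this flag. At 1.5-fold the counts were 18 and 1. With the value table's columns taken by their labels every sign turned. On the side of array 2 and array 1, 0 and 11 genes passed 2-fold (13 and 186 of all 13743 genes). Medians were -0.56 (P450), -0.79 (CYP2) and -0.21 (CYP4). The 11 genes then lay at -1.19 (Cyp26b1), -1.23 (Cyp2a4), -1.22 (Cyp2d10), -1.09 (Cyp2d12), -1.25 (Cyp2d26), -1.09 (Cyp2j5), -1.16 (Cyp4a10), -1.12 (Cyp4a12a), -1.18 (Cyp4a31), -1.02 (Cyp4b1) and -1.51 (Cyp7b1). The cause of each shift was not tested. Other scalings, outlier spots kept and the brightest probe gave 10 or 11 genes past 2-fold (152 to 193 of all 13743 genes). Apart from the value table, the 18 genes higher by 1.5-fold stayed above 0 in each setting that gave them a value (lowest 0.26, Cyp24a1). Signal over background limits Cyp7b1, Cyp24a1, Cyp21a1 and Cyp2c55, which lay near the floor.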
